A study of Mus musculus with 46 samples.

Results

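Ribosome-bound RNA was isolated from AgRP and POMC neurons of the arcuate nucleus (ARC), and 9 genes that are standard markers of glia were read in each library. They were 5 astrocyte genes (Slc1a2, Slc1a3, Aqp4, Gfap and Aldh1l1) and 4 oligodendrocyte genes (Mbp, Mobp, Mog and Mag), taken by symbol from the 31854 genes of the count table, and all 9 passed the filter of a mean CPM over 1 (CPM being a count scaled to the size of its library). The CPM values given below were also adjusted by a TMM factor per library (edgeR's scaling between libraries). The 17 libraries came from male NuTRAP mice, in which Cre recombinase switches on a GFP-tagged L10a ribosomal subunit, so that tagged ribosomes can be pulled down with an antibody to GFP (TRAP). AgRP-IRES-Cre gave 3 fed, 4 fasted and 4 leptin libraries, and POMC-IRES-Cre gave 2 libraries of each state. Each AgRP library pooled the ARCs of 4 C57BL/6J mice of 6 to 11 weeks of age. Fed mice ate ad libitum, fasted mice went without food for 18 to 20 hours and received PBS, and leptin mice were fasted likewise and received leptin at 5 mg/kg, 3 hours before the tissue was taken. The POMC mice were male and of the same background, and a pool of 4 ARCs is stated for the TRAP work in general, while the age range is stated for the AgRP mice. The replicate numbers of the labels are 1 to 4 for AgRP (fed has 1, 3 and 4) and 1 and 2 for POMC. Chromatin accessibility (ATAC-seq) was read in nuclei of NuTRAPAgRP mice sorted on GFP. AgRP-positive nuclei were set against AgRP-negative nuclei (2 libraries each, whose titles give no feeding state). AgRP-positive nuclei of the 3 states were also read (2 libraries each). The peaks used lie within 50 kb of a start site of the 9 genes.

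Astrocytes clear glutamate from the synaptic cleft through the transporters encoded by Slc1a2 (GLT-1) and Slc1a3 (GLAST), and Slc1a2 is also transcribed in some neurons. Aqp4 encodes the water channel of astrocyte endfeet, Gfap an intermediate filament and Aldh1l1 an enzyme of folate metabolism. Oligodendrocytes wrap axons in myelin, whose proteins include those encoded by Mbp, Mobp, Mog and Mag. Neither cell type carries the tag when Cre is confined to neurons. In bulk RNA of this kind, a different number of glial cells in the input and a different amount of glial RNA carried along per cell cannot be told apart.

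Between 25581041 and 54511107 counts fell on genes in each RNA library. The tagged neurons were those named by the labels: Agrp was between 312 and 2133 CPM in the AgRP libraries and between 5.87 and 27.4 CPM in the POMC libraries, and Pomc between 17.4 and 44.0 and between 1126 and 2064 CPM. Libraries with the same replicate number deviated together from their state means (correlation across genes 0.536 to 0.814 in 10 AgRP pairs and 0.734 to 0.770 in POMC libraries). Pairs with different numbers ran from -0.642 to 0.642 in AgRP libraries (30 pairs, median -0.236). For POMC libraries such pairs hold no information of their own. With 2 libraries a state the deviations from the state mean are exact opposites, so their values (-0.770 to -0.734) are the same-number values with the sign reversed. The AgRP ranges of same and different numbers thus overlapped. In TMM-scaled CPM, AgRP number 4 and POMC number 2 lay above all other libraries of their line in 5 and 8 of the 9 glial genes, so these classes are kept apart below. Of all genes tested, 14.6% and 26.8% lay above in the same way. The TMM factors were 0.881 to 0.959 in AgRP number 4 and POMC number 2 and 1.008 to 1.127 in the other libraries, which raises the former against the latter. The classes were chosen from the values of the glial genes. Counts and ratios of these genes between the classes therefore describe that choice and are no test of it. What the numbers stand for is not given in the sources used here.

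All 9 glial transcripts were detected in each of the 17 libraries. Per kilobase of gene model, Slc1a2 was the most abundant, with a mean of 829 ± 778 CPM per kb (SD, n = 17), followed by Slc1a3 (56.4 ± 20.9), Mbp (30.2 ± 5.89), Aqp4 (18.8 ± 11.7), Gfap (9.95 ± 1.62), Mobp (9.23 ± 3.02), Mog (7.33 ± 2.45), Mag (5.0 ± 0.987) and Aldh1l1 (4.64 ± 0.780). The first 2 steps of this order held in 17 of 17 libraries. Mbp was above Aqp4 in 15 of 17, Aqp4 above Gfap in 12, Gfap above Mobp in 13, Mobp above Mog in 14, Mog above Mag in 15 and Mag above Aldh1l1 in 12, and the SDs of these neighbours overlapped.

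Slc1a2 (chr2:102658659-102790784, plus strand, GRCm38), the main glutamate transporter of astrocytes, fell into separate classes by replicate number. In the AgRP libraries with numbers 1 to 3 it lay between 2378 and 3844 CPM (median 3050.4, n = 8). In number 4 it was 20152 CPM in fed, 25852 in fasted and 25265 in leptin mice. The ranges did not overlap, and the mean of number 4 was 7.80 times that of numbers 1 to 3 (23756 ± 3135 against 3046 ± 567, SD). POMC number 1 had 5617 CPM in fed, 6196 in fasted and 5209.6 in leptin mice. POMC number 2 had 23293, 26934 and 26556 CPM in the same order, 4.51 times the level of number 1. In these 6 high libraries Slc1a2 took between 1.93% and 2.42% of all counts, against 0.2403% to 0.641% elsewhere. By CPM it ranked first of all genes in the 6 high libraries and between 1 and 6 in the other 11. By CPM per kb it ranked first or second in the 6 and between 22 and 177 in the 11.

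Slc1a3 (chr15:8634124-8710764, minus strand), the second astrocyte glutamate transporter, and Aqp4 (chr18:15389496-15410982, minus strand), the endfoot water channel, split the libraries the same way by smaller factors. Slc1a3 was between 236 and 318 CPM in AgRP numbers 1 to 3 (median 255, n = 8), and in number 4 it was 445 in fed, 558 in fasted and 551 in leptin mice. In POMC libraries it was 425, 427 and 432 CPM in number 1 and 575, 628 and 657 CPM in number 2 (fed, fasted, leptin). Number 4 was thus 1.95 times numbers 1 to 3, and POMC number 2 was 1.45 times number 1, with no overlap in either line. Aqp4 was between 37.8 and 120.2 CPM in AgRP numbers 1 to 3 (median 50.4), and 212, 162 and 164 CPM in number 4. POMC libraries had 132, 71.4 and 70.8 CPM in number 1 and 246, 172 and 261 CPM in number 2. The factors were 2.79 and 2.47, and the Aqp4 ranges did not overlap either.

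Gfap (chr11:102887336-102900912, minus strand), the astrocyte filament gene, did not follow Slc1a2. It was between 29.9 and 53.3 CPM in AgRP numbers 1 to 3 (median 36.7) and 46.3, 34.7 and 39.7 CPM in number 4 (fed, fasted, leptin), a ratio of means of 1.04. POMC libraries had 48.0, 32.4 and 38.3 CPM of Gfap in number 1 and 46.0, 47.8 and 45.0 CPM in number 2, a ratio of 1.17. The classes overlapped in both lines. Aldh1l1 (chr6:90486427-90600203, plus strand), the folate enzyme gene often used to label astrocytes, was between 16.1 and 21.7 CPM in AgRP numbers 1 to 3 (median 18.5) and 17.98, 14.7 and 18.2 CPM in number 4. In the POMC line it was 12.5, 11.4 and 14.1 CPM in number 1 and 21.2, 21.2 and 18.5 CPM in number 2, 1.6 times as high and with no overlap. Of the 5 astrocyte genes, 3 therefore separated AgRP number 4 and 4 separated POMC number 2. Among all genes tested, 24.0% and 49.9% did so in either direction, and 14.6% and 26.8% upward.

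Of the 4 oligodendrocyte genes, 2 separated AgRP number 4 and 4 separated POMC number 2, in each case by a factor below 2. Of all genes tested, 24.0% and 49.9% separated these classes in either direction, and 14.6% and 26.8% upward. Mbp (chr18:82475146-82585637, plus strand), which encodes a major protein of compact myelin, was between 155 and 209 CPM in AgRP numbers 1 to 3 (median 165) and 232, 238 and 227 CPM in number 4. POMC number 1 had 163, 162 and 176 CPM of Mbp and number 2 had 230.3, 271 and 250.5 CPM. Mobp (chr9:120149707-120181484, plus strand), another myelin protein gene, was between 37.3 and 62.0 CPM in AgRP numbers 1 to 3 (median 49.8) and 63.8, 74.7 and 83.2 CPM in number 4. In TMM-scaled CPM neither gene overlapped between classes in either line, and their ratios were 1.35 and 1.50 in AgRP and 1.50 and 1.89 in POMC libraries. As a share of all counts, without TMM, 3 of these separations were lost. Mbp took 0.0235% in AgRP fed number 1 and 0.0211% to 0.0223% in AgRP number 4. Mobp took 0.00698% in AgRP fed number 1 and 0.00611% to 0.00776% in AgRP number 4. In POMC libraries Mobp took 0.00626% in leptin number 1 and 0.00601% to 0.00925% in number 2. Mog (chr17:37010743-37023398, minus strand), which encodes a glycoprotein of the outer myelin surface, ran from 7.59 to 17.4 CPM in AgRP numbers 1 to 3 (median 9.78) and was 16.8, 13.2 and 16.4 CPM in number 4, so that the classes overlapped. Mag (chr7:30899176-30914873, minus strand), an adhesion molecule of the inner myelin surface, ran from 16.2 to 26.0 CPM (median 18.8) and was 22.2, 19.6 and 20.1 CPM in number 4, which overlapped too. In the POMC line Mog was 1.88 times and Mag 1.49 times as high in number 2, with no overlap in TMM-scaled CPM. As a share of all counts Mag did overlap there, at 0.00145% in leptin number 1 and 0.00135% in leptin number 2.

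**Figure D1:**
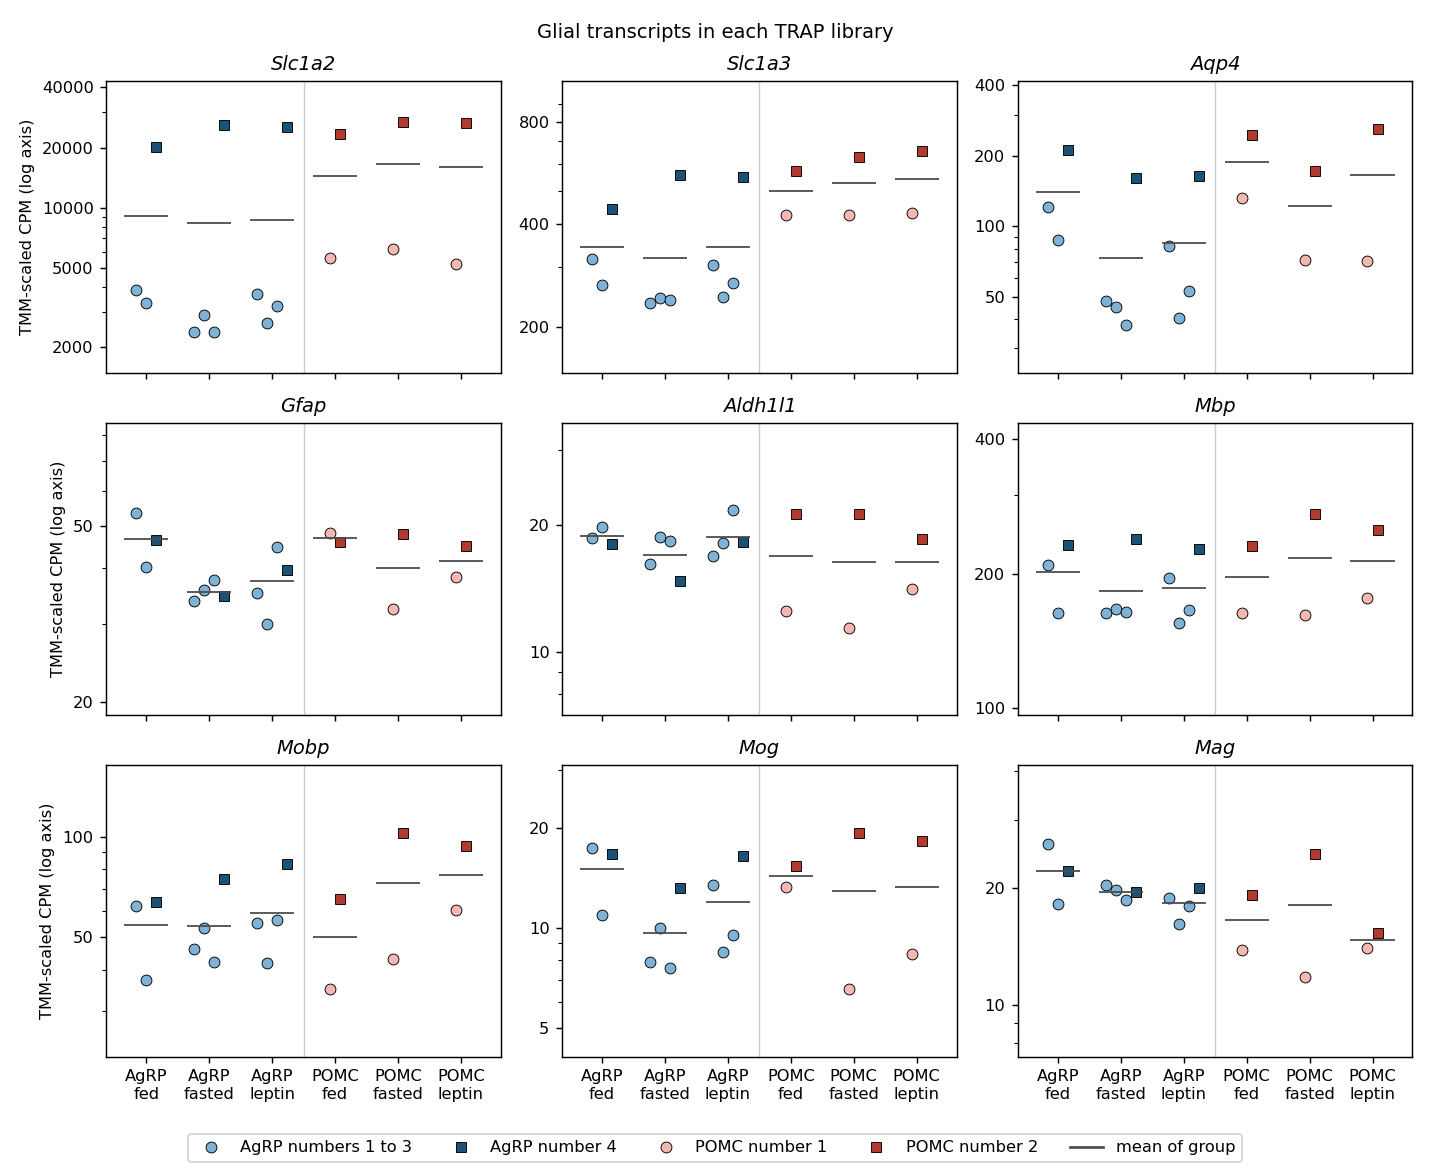
TMM-scaled CPM (log axis, a scale of its own per gene) of the 9 glial genes in each TRAP library, by line and state; circles are AgRP numbers 1 to 3 and POMC number 1, squares AgRP number 4 and POMC number 2, and bars the mean of each group. Slc1a2 lies between 20152 and 26934 CPM in the 6 square libraries and between 2378 and 6196 CPM in the other 11, whereas the Gfap classes overlap in both lines.

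Counted over the 9 genes, all 3 libraries of AgRP number 4 were above all 8 others of that line in 5 (Slc1a2, Slc1a3, Aqp4, Mbp, Mobp), where 14.6% of the 13401 genes tested were, and below them in 0, where 9.47% were. In the POMC line all 3 libraries of number 2 were above those of number 1 in 8 of 9, Gfap being the exception, where 26.8% of 13412 genes were. These counts rest on TMM-scaled CPM. As shares of all counts, Mbp and Mobp overlapped between the AgRP classes, and Mobp and Mag between the POMC classes. The replicate number was then tested with the state in the model (F test of edgeR's quasi-likelihood fit, Benjamini-Hochberg). In AgRP libraries 6 of 9 glial genes passed an FDR of 0.05, while 51.6% of all genes did. They were Slc1a2 (largest difference between numbers 3.11 on the log2 scale, FDR = 1.37e-07), Aqp4 (1.84, FDR = 9.08e-06), Slc1a3 (1.12, FDR = 1.71e-05), Mog (0.78, FDR = 0.0103), Mobp (0.75, FDR = 0.00602) and Mbp (0.54, FDR = 0.000484). Gfap, Mag and Aldh1l1 had differences of 0.21, 0.22 and 0.23, below the median of 0.34 over all genes. For Slc1a2, 29 of 13401 genes had a larger difference. The POMC fit passed 8 of 9 (44.5% of all genes, and 24.5% in the upward direction). There Slc1a2 was at 2.16 ± 0.09 (SE, FDR = 5.52e-07), where 28 of 13412 genes had a larger difference, and Gfap at 0.23 (FDR = 0.109). Among AgRP numbers 1 to 3 alone, 1 of 9 passed (Aqp4, 0.53, FDR = 0.013), while 21.8% of genes did.

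The other marker genes were summed per library beside the members. The 16 other astrocyte markers summed to between 1281 and 1853 CPM in AgRP numbers 1 to 3 and to between 2217 and 2528 CPM in number 4. POMC sums were 1495 to 1765 CPM in number 1 and 2719 to 2928 CPM in number 2. These astrocyte sums did not overlap, and their steps were smaller than that of Slc1a2. The 19 other oligodendrocyte markers summed to 541 to 824 CPM and 760 to 909 CPM in the AgRP classes, which overlapped, and to 560 to 714 CPM and 839 to 1032 CPM in the POMC classes, which did not. Single genes that were above in all libraries of the class numbered 5 of 16 and 6 of 19 in AgRP number 4, where 14.6% of all genes tested were. In POMC number 2 they numbered 11 of 16 and 13 of 19, where 26.8% of all genes tested were. The 10 microglia markers overlapped in sum in AgRP (19.97 to 46.6 CPM against 40.9 to 46.4) and not in POMC libraries (26.7 to 44.3 against 46.8 to 59.3). The 11 tanycyte and ependymal markers did not overlap in AgRP (139 to 176 against 221 to 281 CPM) and overlapped in POMC libraries (221 to 246 against 231 to 287), and the 4 precursor markers (28.3 to 43.4 against 48.2 to 49.4, and 43.1 to 49.9 against 63.3 to 75.7 CPM) did not overlap in either. The 9 vascular markers overlapped in both lines, at 98.6 to 188 CPM in all. No listed marker was at 0 in all libraries. The part of these cell types in the difference between numbers was not tested.

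The markers of the tagged neurons did not separate AgRP number 4. The 6 AgRP neuron markers summed to 1654 to 6441 CPM in numbers 1 to 3 and to 1685 to 4647 CPM in number 4. In POMC libraries the 4 POMC neuron markers were lower in number 2 (1564 to 1815 CPM) than in number 1 (2129 to 2940 CPM), the reverse order of the glial genes. The 9 general neuron markers overlapped in AgRP (3867 to 5186 against 4495 to 4956 CPM) and were somewhat higher in POMC number 2 (5302 to 5925 against 4759 to 5154 CPM).

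**Figure D2:**
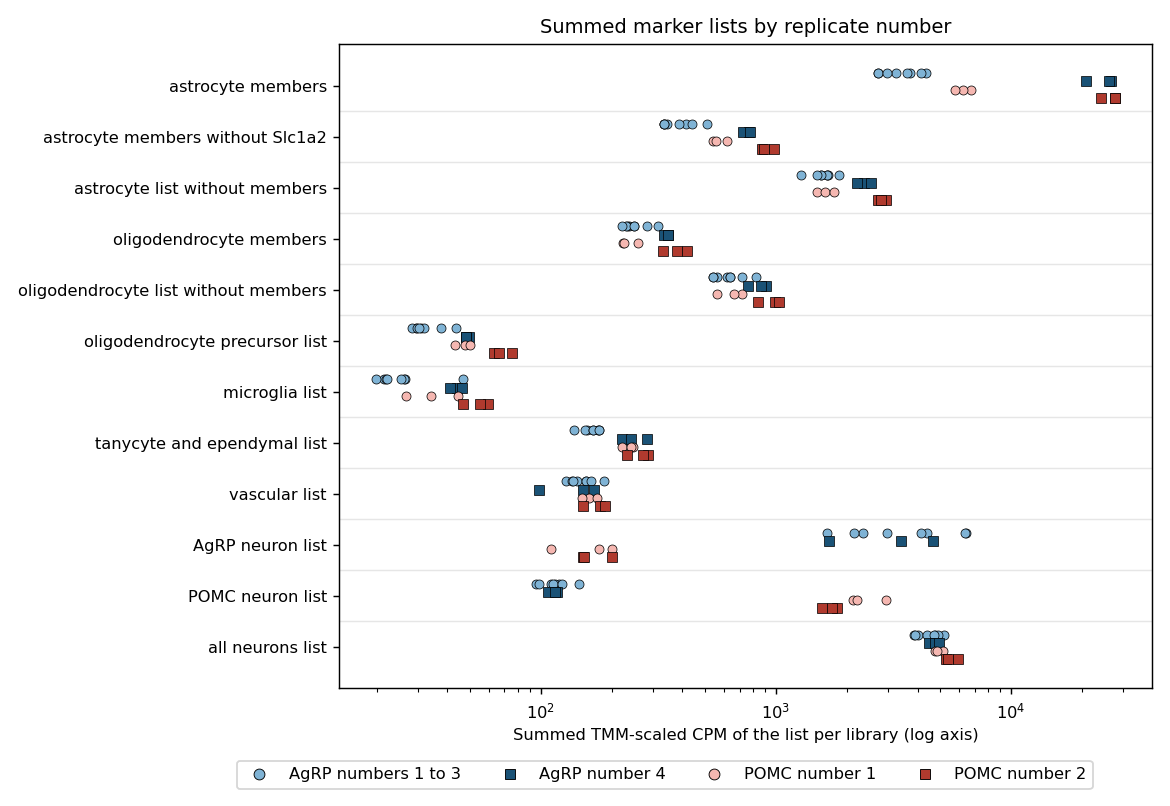
Summed TMM-scaled CPM of each marker list per library (log axis); each point is 1 library, circles are AgRP numbers 1 to 3 and POMC number 1, squares AgRP number 4 and POMC number 2. The astrocyte members lie between 20873 and 27803 CPM in the 6 square libraries and between 2712 and 6738 CPM in the others, and the AgRP neuron list overlaps between the AgRP classes.

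Fasting was compared with feeding in the 3 fed and 4 fasted AgRP libraries. With the state alone in the model, none of the 9 glial genes was called, a call here being an FDR below 0.05 with a log2 difference beyond 0.5 either way (3.89% of 13401 genes were called, 521 in number), and 2 of 9 had an unadjusted p under 0.05 (19.3% of all genes did). Differences ran from -0.91 ± 0.60 (Aqp4, FDR = 0.466) to 0.01 ± 0.28 (Mobp, FDR = 0.991), 8 of 9 negative, with a median of -0.14 against 0.02 over all genes. Slc1a2 differed by -0.09 with an SE of 1.15, the largest SE of the 9 genes in this fit. DESeq2 (4.93% of genes called), other scalings and each fit without 1 library also called 0 of 9. Slc1a2 was at -1.845 without fasted number 4 and at 1.25 without fed number 4.

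Because same-numbered libraries deviated together, the replicate number was also fitted as a block. With the block 2 of 9 glial genes were lower in fasted mice (6.94% of all genes were called, and 2.54% lower). Aqp4 had 120.2, 87.0 and 212 CPM in fed numbers 1, 3 and 4 and 47.8, 37.8 and 162 CPM in the fasted libraries of those numbers, with 44.9 CPM in fasted number 2. Aqp4 was lower in 3 of 3 pairs, by -0.88 ± 0.16 (FDR = 0.0024). Mog had 17.4, 11.0 and 16.8 CPM in fed numbers 1, 3 and 4 and 7.90, 7.59 and 13.2 CPM in the fasted libraries of those numbers, with 10.0 CPM in fasted number 2, and was lower in 3 of 3 pairs, by -0.56 ± 0.16 (FDR = 0.027). Gfap had -0.33 ± 0.12 (FDR = 0.0715) and Slc1a2 -0.20 ± 0.17 (FDR = 0.419). With number 4 left out in all states, Aqp4 was at -1.26 ± 0.25 (FDR = 0.0189) and was the 1 gene of 9 called (5.28% of 13419 genes were), Mog was at -0.74 (FDR = 0.0941) and Slc1a2 at -0.50 (FDR = 0.153). Number 4 was left out after its values of these genes were seen.

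Other glial markers were called in the same direction in the blocked fit. Of the 17 other oligodendrocyte markers tested, 5 were lower, where 2.54% of all genes were, and 0 higher (median -0.38), among them Ugt8a, an enzyme of myelin lipid synthesis (-0.86 ± 0.17, FDR = 0.00397). Of 6 microglia markers 2 were lower, P2ry12 by -0.84 (FDR = 0.0375), and of the 16 other astrocyte markers none was called (median -0.20). In the same fit 5 of 6 AgRP neuron markers were higher, where 4.4% of all genes were, Agrp by 1.64 (FDR = 8.74e-05) and Npy by 1.57 (FDR = 0.000116). CPM values are relative to the other RNA of a library, and whether the glial values and these neuronal values are linked was not tested.

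**Figure D3:**
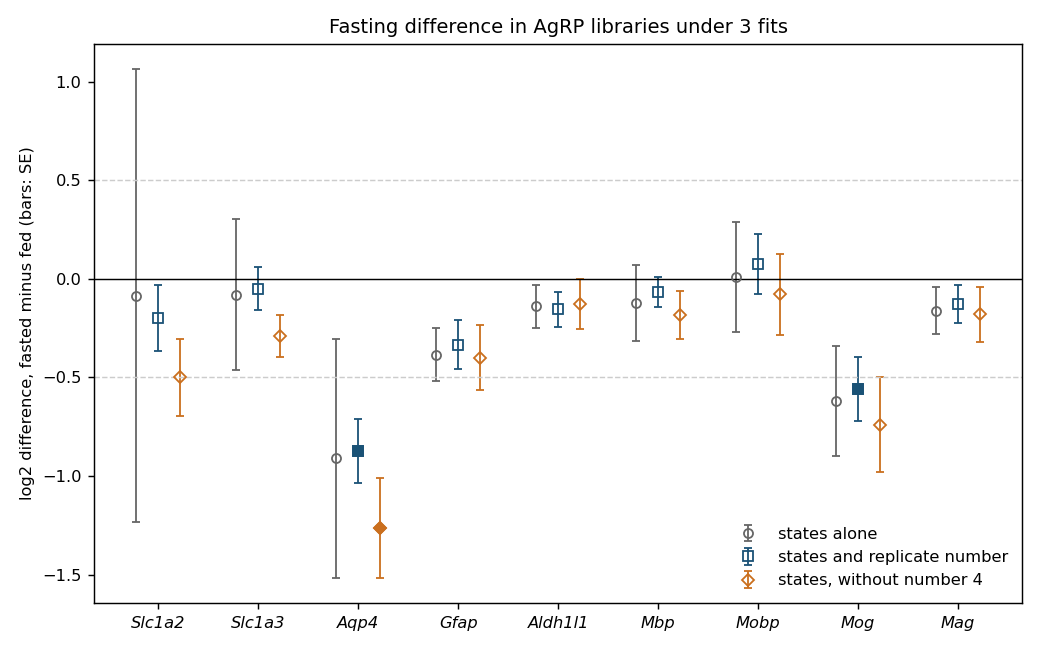
Log2 difference (fasted minus fed) of the 9 glial genes in AgRP libraries, with SE bars, in the fit with the states alone (circles), with the replicate number as a block (squares) and without number 4 (diamonds); filled symbols are called, and dashed lines mark a log2 difference of 0.5 either way. Aqp4 lies between -1.26 and -0.88 in the 3 fits and is called in the latter 2, while the SE of Slc1a2 falls from 1.15 to 0.17 with the block.

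Leptin did not separate the glial genes from the fasted AgRP libraries. None of the 9 was called between 4 leptin and 4 fasted libraries (1.83% of genes were), with 0 at an unadjusted p under 0.05 (9.13% of all genes), and 0 with DESeq2 (2.37% of genes called) or the block (2.91%). Differences ran from -0.10 ± 0.11 (Mag) to 0.30 ± 0.26 (Mog), and Aqp4, lower in the fasted libraries under the block, was at 0.21 ± 0.56. In the POMC line, with 2 libraries a state, 0 of 9 were called for fasting, nor was any of 13412 genes (0.0%). For fasting 282 genes (2.1%) had an unadjusted p under 0.05, and DESeq2 and the block called 3 genes each (0.0224%). Leptin also called 0 of 9 and 0.0% of genes, with 151 (1.13%) at an unadjusted p under 0.05, 10 (0.0746%) called by DESeq2 and 8 (0.0596%) with the block. Fasting differences there ran from -0.64 ± 0.72 (Aqp4) to 0.54 ± 0.50 (Mobp), and leptin differences from -0.31 ± 0.36 (Mag) to 0.44 ± 0.71 (Aqp4). With the block, POMC Aqp4 was at -0.71 ± 0.18 (FDR = 0.164).

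The difference of these effects between the lines was tested directly. Neither the fasting effect (0 of 9, 0.164% of 13435 genes) nor the leptin effect (0 of 9, 0.0819%) differed for a glial gene. Differences in the fasting effect, AgRP minus POMC, ran from -0.55 ± 0.55 (Mobp) to -0.10 ± 0.33 (Aldh1l1), negative in 9 of 9, and those in the leptin effect from -0.23 ± 1.00 (Aqp4) to 0.26 ± 0.58 (Mog). For Aqp4 the difference in the fasting effect was -0.30 with an SE of 1.02, so that a difference of the size of its AgRP fasting effect was not detectable in that test. With the replicate number as a block, the fasting effect also differed for 0 of 9 (6.22% of genes were called), with a lowest FDR of 0.294 (Mobp) and Aqp4 at -0.17 ± 0.28.

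The 11 AgRP and 6 POMC libraries were compared over the mean of the 3 states. Of the 9 glial genes 1 was called (13.0% of genes were, 6.45% lower in AgRP): Slc1a3, lower in AgRP libraries by -0.65 ± 0.23 (FDR = 0.0411). The fit held no term for the replicate number, so same-numbered libraries, which deviate together, were treated as independent. Slc1a2 was at -0.84 ± 0.73 (FDR = 0.376) and Aqp4 at -0.71 ± 0.41 (FDR = 0.183). The call of Slc1a3 was lost in fed, fasted or leptin libraries alone. Without AgRP number 4 and POMC number 2, 4 of 9 were called (15.9% of 13431 genes were). Those libraries were left out because of the values of these same 9 genes. The FDRs of this fit carry that choice, and its calls are a description and no test of the lines. The POMC arm of this fit was 3 libraries of 1 replicate number, which deviate together, and the fit treats them as independent. Slc1a2 and Slc1a3 were then lower in AgRP libraries by -0.89 ± 0.15 (FDR = 0.00173) and -0.69 ± 0.08 (FDR = 0.000213), and Aldh1l1 and Mag were higher by 0.54 ± 0.10 (FDR = 0.00268) and 0.56 ± 0.11 (FDR = 0.00409). In that setting POMC libraries had 5209.6 to 6196 CPM of Slc1a2 and AgRP libraries 2378 to 3844 CPM, while Mbp, Mobp, Mog, Gfap and Aqp4 were not called. The lines also differ in their mice, their Cre driver and their replicate numbers, whose parts cannot be told apart from that of the neuron.

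Within 50 kb of a start site of the 9 genes lay 71 of the 67472 ATAC-seq peaks of the sorted nuclei, 70 of them tested, and the underlying sequence is shown for 4 of these peaks, as examples of Slc1a2, Aldh1l1 and Mog peaks whose accessibility differed between AgRP-positive and AgRP-negative nuclei. The central 300 bases are given on the plus strand of GRCm38 (mm10), with matches on either strand to 5 motifs in capitals: the NFI site TTGGCA, the SOX sites ACAAAG and ACAAT, the STAT site TTCNNNGAA and the AP-1 site TGANTCA. NFI and SOX factors act in glial development, and a match is no evidence of binding. The first 2 lie upstream of Slc1a2 (centres of peaks 37.7 kb and 9.2 kb before its start site, the former within Pamr1), the next in an intron of Aldh1l1 and the last in Gabbr1, 38.3 kb upstream of Mog. The first 3 were less accessible in AgRP-positive nuclei and the last more so.
Slc1a2 peak, chr2:102620813-102621112: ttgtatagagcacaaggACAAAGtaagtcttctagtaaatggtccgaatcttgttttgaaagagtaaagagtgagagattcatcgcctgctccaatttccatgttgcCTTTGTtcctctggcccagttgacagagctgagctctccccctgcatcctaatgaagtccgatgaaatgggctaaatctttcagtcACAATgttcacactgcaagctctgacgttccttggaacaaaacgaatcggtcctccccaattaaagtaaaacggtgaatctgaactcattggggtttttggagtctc
Slc1a2 peak, chr2:102649266-102649565: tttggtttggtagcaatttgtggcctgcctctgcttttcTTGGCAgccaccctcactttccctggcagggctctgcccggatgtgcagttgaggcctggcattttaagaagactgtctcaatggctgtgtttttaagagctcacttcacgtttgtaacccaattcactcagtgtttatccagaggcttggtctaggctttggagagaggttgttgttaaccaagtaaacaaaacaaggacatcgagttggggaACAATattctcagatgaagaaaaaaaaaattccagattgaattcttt
Aldh1l1 peak, chr6:90535115-90535414: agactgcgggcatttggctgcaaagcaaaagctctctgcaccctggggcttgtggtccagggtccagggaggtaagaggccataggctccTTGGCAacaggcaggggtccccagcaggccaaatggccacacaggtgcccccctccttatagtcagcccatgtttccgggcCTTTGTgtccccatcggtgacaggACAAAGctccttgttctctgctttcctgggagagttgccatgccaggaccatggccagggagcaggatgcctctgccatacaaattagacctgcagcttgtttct
Mog peak, chr17:37061507-37061806: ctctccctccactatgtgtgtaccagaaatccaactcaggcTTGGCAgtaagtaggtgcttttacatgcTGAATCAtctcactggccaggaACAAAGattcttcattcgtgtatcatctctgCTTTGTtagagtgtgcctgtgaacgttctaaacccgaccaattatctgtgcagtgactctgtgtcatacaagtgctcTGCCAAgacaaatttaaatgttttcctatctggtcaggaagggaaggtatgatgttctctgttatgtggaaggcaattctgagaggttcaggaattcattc

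Of the 14 called astrocyte peak centres that were lower in AgRP-positive nuclei (Aqp4 left out), 3 held TTGGCA, 6 ACAAAG, 4 ACAAT, 2 TTCNNNGAA and 0 TGANTCA. Over the centres of all 66480 peaks read, the shares that held these motifs were 14.3%, 22.4%, 35.6%, 11.1% and 17.8%. The windows of 300 bases at the RefSeq start sites were matched for 7 of the 9 genes, and 1 of those held ACAAAG, Mobp, with 6 matches, where 18.7% of 32851 promoters held at least 1. The first 200 bases of the Mobp window, which begins 250 bases before the RefSeq start site, are shown on the plus strand of GRCm38.p6 for that run of matches, in capitals. The nearest ATAC-seq peak of the sorted nuclei lay 6.8 kb upstream of the Mobp outer start site.
Mobp upstream, chr9:120149492-120149691: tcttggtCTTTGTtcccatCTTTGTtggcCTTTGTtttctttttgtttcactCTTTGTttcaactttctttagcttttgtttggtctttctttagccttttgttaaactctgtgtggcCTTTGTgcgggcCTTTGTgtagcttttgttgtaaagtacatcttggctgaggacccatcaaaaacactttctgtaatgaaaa

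Near the astrocyte genes, most of the called peaks were less accessible in AgRP-positive than in AgRP-negative nuclei, while called peaks near the oligodendrocyte genes went both ways. Of the 70 peaks tested near the 9 genes, 32 were called by the same rule as the genes, where 39.6% of all 66560 peaks were. They were 11 higher (15.7%, against 23.9% of all peaks) and 21 lower (30.0%, against 15.6%). Near the 5 astrocyte genes 16 of 37 were lower (43.2%), 2 higher and 19 not called, with a median log2 difference of -0.50 against 0.00 over all peaks. Near the 4 oligodendrocyte genes 9 of 33 were higher (27.3%) and 5 lower (15.2%), with a median of 0.07. Peaks near the 16 other astrocyte markers were also lower more often than the background (38 of 95, or 40.0%), and so were those near the other oligodendrocyte markers (33 of 97, or 34.0%), whereas the share for Mbp, Mobp, Mog and Mag was near the background. Around the AgRP neuron markers 33 of 58 were higher. The AgRP-negative libraries are labelled as neurons, and the sort was on GFP. Both populations came from the same pools of ARCs, and with the replicate number as a block 34 of 70 were called (43.3% of all peaks), the additions being an intronic Slc1a3 peak lower (-1.65, FDR = 0.028) and a peak upstream of Gfap (chr11:102904344-102904541) higher (1.34, FDR = 0.0293). Scaling by library size alone moved the median of all peaks by 0.16 upward.

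Near Slc1a2, 4 of 7 peaks were lower and 1 higher. The peak 37.7 kb upstream of its start site (chr2:102620746-102621179) had 8.74 and 7.58 CPM in AgRP-negative and 1.51 and 1.08 CPM in AgRP-positive libraries, a difference of -2.65 ± 0.41 (SE, FDR = 2.78e-09). The peak at the start site itself (chr2:102658260-102659538, exon) had 45.3 and 41.2 against 34.9 and 26.2 CPM, a difference of -0.50 ± 0.15 (FDR = 0.0027). The Slc1a2 start site was thus open in both populations, at levels that did not overlap, and less so in AgRP-positive nuclei. With library size alone as the scale that peak was at -0.34 (FDR = 0.0524). Near Slc1a3, 3 of 6 were lower, and the peak at its start site (chr15:8710152-8710723, exon) had 4.18 and 7.34 against 2.40 and 2.33 CPM, a difference of -1.29 ± 0.40 (FDR = 0.00441).

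For Aqp4 2 of 5 peaks were lower, the more so an intronic one (chr18:15404938-15405386; -2.11 ± 0.44, FDR = 1.39e-05), and the peak nearest a start site was at 0.36 (FDR = 0.652). Gfap had 2 of 7 lower, both outside the gene, and 1 of its 7 peaks lay within it. The larger decrease lay in Eftud2, 22.0 kb downstream of an internal Gfap start site (-2.06 ± 0.36, FDR = 1.72e-07). The other (chr11:102946658-102946880; -1.37 ± 0.51, FDR = 0.0213) overlapped the start site of C1ql1, which stood on the precursor list. Both count among the 16 lower astrocyte peaks. The peak 185 bases upstream of the outermost Gfap start site was at 0.17 (FDR = 0.711). Aldh1l1 had the largest number of lower astrocyte peaks, 5 of 12. Its peak 15.1 kb upstream, in Klf15 (chr6:90471116-90471520), had 8.98 and 8.52 against 1.51 and 1.92 CPM (-2.34 ± 0.38, FDR = 1.14e-08). The intronic peak shown above (chr6:90535101-90535427) had 8.98 and 10.8 against 1.33 and 2.58 CPM (-2.32 ± 0.35, FDR = 1.34e-09). Another, 66 bases from an internal start site, was at -2.08 ± 0.44 (FDR = 2.03e-05), while an intronic Aldh1l1 peak (chr6:90565579-90566212) was higher, at 1.43 ± 0.28 (FDR = 5.16e-06).

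Mbp had called peaks in both directions, 5 higher and 4 lower of 15. The intronic peak chr18:82551221-82551912 had 11.1 and 17.9 CPM in AgRP-negative and 33.9 and 36.8 CPM in AgRP-positive libraries (1.28 ± 0.18, FDR = 1.3e-11), and a peak 20.5 kb upstream was at 1.70 ± 0.28 (FDR = 1.6e-08). Against these, the peak at an internal Mbp start site (chr18:82554319-82554635, exon) had 10.7 and 5.09 against 2.22 and 1.33 CPM (-2.15 ± 0.39, FDR = 4.18e-07). All 5 higher peaks lay upstream of this internal start site, while lower peaks lay at it and on both sides of it. Mbp has 12 annotated start sites, and its RNA count does not tell their transcripts apart. The outermost Mbp start site was at 0.42 ± 0.15 (FDR = 0.0173), under the fold required. Mobp had 2 higher and 1 lower of 8, the largest increase 37862 bases downstream of a start site (1.38 ± 0.36, FDR = 0.000612). Mog had 2 higher of 6, both in Gabbr1, which encodes a subunit of the GABA-B receptor, and the one shown above had 2.34 and 1.42 against 6.22 and 8.08 CPM (1.93 ± 0.41, FDR = 1.73e-05). None of 4 Mag peaks was called.

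**Figure D4:**
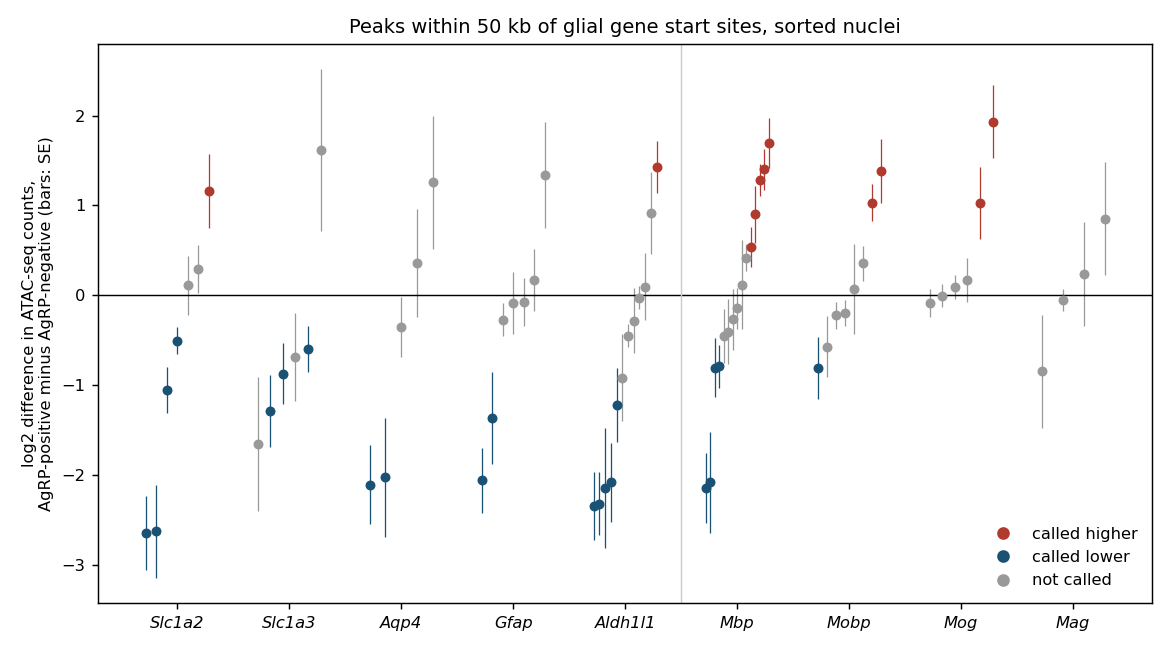
Log2 difference in ATAC-seq counts (AgRP-positive minus AgRP-negative nuclei) of the 70 tested peaks near the 9 glial genes, with SE bars, ordered by size within each gene; blue is called lower, red called higher and grey not called. The astrocyte genes, left of the line, hold 16 of the 21 lower peaks, and Mbp, Mobp and Mog hold 9 of the 11 higher ones.

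In AgRP-positive nuclei of the 3 states, 101 of 123721 peaks lay near the 9 genes and 92 were tested. Fasting against feeding called 28 of 92 (30.4%), 19 higher and 9 lower, where 27.0% of all 102237 peaks were called (18.1% higher and 8.88% lower), a share near the background. An Aqp4 intronic peak (chr18:15408556-15409084), whose centre also lies in AC133525.2, had 1.24 and 1.44 CPM in fed, 13.1 and 14.3 in fasted and 14.2 and 17.5 in leptin libraries, a fasting difference of 3.32 ± 0.40 (FDR = 2.63e-05). Aqp4 RNA, lower in fasted mice in the blocked fit, was read in TRAP libraries and not in these sorted nuclei. Whether the 2 come from the same cells was not tested. A peak 12.0 kb upstream of Mog (chr17:37035148-37035722) had 0.496 and 1.66 CPM in fed, 8.99 and 13.1 in fasted and 13.1 and 12.7 in leptin libraries (3.17 ± 0.45, FDR = 8.34e-05). Lower in the fasted state were an intronic Slc1a3 peak (chr15:8663760-8663945; 1.86 and 2.81 CPM in fed, 0.382 and 0.311 in fasted libraries; -2.79 ± 0.60, FDR = 0.00208) and an intronic Mag peak (-2.64 ± 0.54, FDR = 0.00128). Near Slc1a2 the largest changes were 2.35 ± 0.51 and -1.26 ± 0.41, both intronic, and its start site was at -0.30 (FDR = 0.326). Fed library 1 had 8263234 counts against 14324992 to 17190963 in the other 5. Leptin against fasting called 0 of 92 (3.08% of all peaks were), with 11 at an unadjusted p under 0.05 (13.9% of all peaks) and a lowest FDR of 0.0572, and differences ran from -1.44 to 1.40.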

How the data were processed

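TRAP RNA-seq of 17 libraries and ATAC-seq of 10 libraries were used, grouped by the sample labels. RNA of whole ARC and the CUT&RUN samples were not analysed here. For RNA, the authors deposited raw counts per gene made with HISAT2 (mm10) and featureCounts, and for ATAC-seq raw counts per merged peak made with Bowtie2, MACS2 and bedtools. Versions are not given in the sources used here.

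Genes or peaks whose mean CPM exceeded 1 entered the quasi-likelihood test of edgeR 4.0.16 (R 4.3.3), after TMM scaling, with Benjamini-Hochberg adjustment over the whole table. Calls needed an FDR below 0.05 together with a log2 difference beyond 0.5 either way, and in replicate-number tests the FDR alone. SEs are those implied by the F statistic. None is given for the AgRP replicate-number test, whose F statistic covers several coefficients at once. CPM per kb used the gene lengths of the count table. AgRP libraries shared 1 model, as did POMC libraries. Interactions and the comparison of the lines used both. Replicate numbers were taken to pair the RNA libraries (each same-numbered correlation over 0.1), although AgRP pairs of different numbers reached 0.642. Sorted AgRP-positive and AgRP-negative nuclei came from the same pools, although the labels do not tie numbers to pools (correlation 0.0988), and the 3 states of the ATAC-seq were not paired. The pipeline was tested on simulated data.

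The members, the marker lists, the motifs and the rule for named genes and peaks were chosen with earlier results of these data known. The rule took all 9 members, Agrp, Npy and Pomc, the 2 called markers of other lists with the largest change each way, the 8 genes most correlated with the members, and per member the peak nearest a start site and the largest called change each way. Not all are reported here. Further peaks were chosen after their values were seen. Alternatives were DESeq2 1.42.0 and its size factors, library size alone, no filter, the replicate block, each library left out, single states, and a 10 kb or outermost-start window. Leaving out AgRP number 4 and POMC number 2 was added after the data were seen. P-values measure the spread between libraries, each a pool of mice in the AgRP line.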

Additional observations from a re-analysis of the deposited data

Results flagged for a closer look

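In 18 groups of 4 AgRP libraries (9 genes in fasted and in leptin mice), 5 values lay farther from the other 3 than Dixon's 95% critical value allows. That value passes about 1 in 20 groups by chance, a rate that holds for independent groups not chosen by their values. The 18 groups come from the same 8 libraries and are not independent of each other. Number 4 was set apart because of the values of these same genes, so the count describes that choice and is no test of it. All 5 values were from number 4, 4 of them from its fasted library, and number 4 lay above all other AgRP libraries in 14.6% of all genes. Slc1a2 was at 25852 CPM in the fasted library and 25265 CPM in the leptin library of that number, with gaps of 0.978 and 0.953 of the group's range. In the same fasted library Slc1a3 was at 557.7 CPM (gap 0.974), Aqp4 at 161.5 CPM (gap 0.919) and Mbp at 238.4 CPM (gap 0.959). The fed group holds 3 libraries and the POMC groups 2 each, so neither was examined in this way. The cause of the difference between numbers was not tested.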

How the results depend on the processing

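Counts of called glial genes depended most on how number 4 and the replicate number were treated. For AgRP fasting the count of 0 became 2 with the replicate block and 1 without number 4 in all states. For AgRP against POMC the count of 1 became 0, 0 and 0 in fed, fasted and leptin libraries alone, 4 without AgRP number 4 and POMC number 2, and 0 to 2 when single libraries were left out. The fit behind the count of 4 left out libraries that were chosen from the values of these genes. For the AgRP replicate number the count of 6 became 1 without number 4. The blocked fit changed no other call of a glial gene. For AgRP fasting DESeq2 gave Slc1a2 no p-value. For the sorted nuclei the count of 32 peaks became 21 with DESeq2, 14 in a 10 kb window, 19 with the outermost start sites alone and 19 to 24 when single libraries were left out. For ATAC-seq fasting the count of 28 became 9 in the 10 kb window, 18 with the outermost start sites and 14 to 21 when single libraries were left out. For ATAC-seq leptin the count of 0 became 4 with the replicate block, whose numbers do not pair those libraries, and 0 to 2 when single libraries were left out. The cause of these differences was not tested, except that fewer peaks entered the narrower windows and fewer libraries the fits that left libraries out.

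Some values changed sign. For AgRP against POMC, Mbp, Mobp and Mog were at 0.034, 0.12 and 0.072 in fed libraries alone and at 0.045, 0.11 and 0.25 without AgRP number 4 and POMC number 2. In that setting the fasting interaction of Aldh1l1 was at 0.0020 and the leptin interactions of Aqp4 and Mog at 0.45 and -0.052. In sorted nuclei the peak nearest Mog was at 0.077 with library size alone. In the fasting ATAC-seq the start-site peak of Slc1a3 was at -0.028 with DESeq2's size factors, -0.094 with DESeq2 and -0.029 with the replicate block. With single libraries left out, AgRP fasting ran from -1.845 to 1.25 for Slc1a2 and from -0.52 to 0.14 for Slc1a3, and AgRP leptin from -1.43 to 1.82 for Slc1a2 and from -0.34 to 1.00 for Aqp4. POMC fasting ran from -0.21 to 1.05 for Mobp, and POMC leptin from -0.78 to 1.20 for Aqp4 and from -0.74 to 0.31 for Mag. AgRP against POMC ran from -0.25 to 0.00086 for Mbp, from -0.40 to 0.016 for Mobp and from -0.36 to 0.16 for Mog. The fasting interaction ran from -1.06 to 0.20 for Mobp and from -0.53 to 0.39 for Aldh1l1, and the leptin interaction from -0.97 to 1.00 for Aqp4 and from -0.69 to 0.94 for Mog. In sorted nuclei the peaks nearest a start site ran from -0.052 to 0.85 for Aqp4, from -0.34 to 0.98 for Gfap and from -0.34 to 0.60 for Mobp. In fasting ATAC-seq they ran from -0.45 to 0.32 for Slc1a3, from -0.058 to 0.32 for Gfap and from -1.09 to 0.019 for Mobp. None of these values was called in the first fit. Of 683 alternative values of single glial genes, 610 kept direction and call, and of 420 of named peaks 365 did.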

Other observations

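Over the 17 TRAP libraries, each taken as its deviation from the mean of its line and state, the genes most correlated with the mean of the 5 astrocyte members were Daam2 (r = 0.997), Phactr4 (0.995), Acot11 (0.994), Nfia (0.994), Reep3 (0.994), Scd1 (0.993), Amot (0.992) and Slc4a4 (0.992), of which Slc4a4, a bicarbonate cotransporter gene, stood on the astrocyte list. For the 4 oligodendrocyte members they included Car2 (0.989), Cldn11 (0.979), Erbb3 (0.973), Ugt8a (0.972), Arhgap42 (0.970), Rhou (0.969) and Bcas1 (0.969), of which Cldn11 and Ugt8a stood on the oligodendrocyte list. These points share the replicate classes. Within the 8 libraries of AgRP numbers 1 to 3, Cldn11 (0.998) and Arhgap42 (0.988) were again among the 8 genes nearest the oligodendrocyte members, whereas none of the 8 nearest the astrocyte members was among those named over all 17.

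Among the members, the correlation of Slc1a2 was 0.978 with Slc1a3, 0.960 with Aqp4 and 0.906 with Mbp over the 17 libraries, but 0.319 with Gfap and 0.256 with Aldh1l1. In the 8 libraries of AgRP numbers 1 to 3 these were 0.860, 0.842, 0.792, 0.498 and -0.03. Aqp4 and Mog, the 2 members lower in fasted mice in the blocked fit, had a correlation of 0.867 over the 17 libraries and 0.864 in those 8, with the state means removed.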
